A study of Mus musculus with 12 samples.

Results

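The unfolded protein response and secretory pathway set held 37 of the 24478 gene symbols in the deposited tables, and all 37 had enough reads to be tested. Members were taken by symbol, with 1 transcript for each gene, and without regard to their levels. They comprised 5 stress sensors and factors, 15 chaperones and folding enzymes, 7 genes of endoplasmic reticulum (ER) associated degradation, and 10 genes of the translocon, the signal peptidase and the coat of vesicles that leave the ER.

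Poly(A) RNA of mouse thymic tissue was sequenced in 12 libraries, 3 per group in 4 groups. Controls were thymic tissue, labelled T lymphocytes, with MYC from the endogenous gene alone. T58A lymphomas and S62A lymphomas were spontaneous thymic lymphomas labelled as T lymphocytes in which the named ectopic MYC mutant was the sole form of MYC. The S62A splenomegaly mass was thymic tissue of S62A animals with an enlarged spleen, labelled as T and B lymphocytes that carried ectopic S62A beside endogenous MYC. The sources used here do not give strain, age, the driver of the ectopic MYC or the number of animals. Nor do the labels tie each library to an animal of its own, and p-values therefore speak only of the spread between these libraries, possibly a technical one.

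Secreted and membrane proteins enter the ER through the translocon, lose their signal peptide, fold with the help of chaperones and disulfide isomerases, and are retrieved to the cytosol for destruction when they fail to fold. Unfolded proteins in the ER are sensed by IRE1 (gene Ern1), PERK (Eif2ak3) and ATF6, which act through splicing of Xbp1 RNA, phosphorylation of an initiation factor that favours translation of ATF4, and proteolytic release of a transcription factor. These steps act on proteins and on splicing, which read counts per gene do not measure. Their target genes include much of the secretory machinery, and plasma cells, which secrete antibodies, are known for using that machinery heavily.

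The ER stress response element, a motif bound by ATF6 and XBP1 with NF-Y, was searched in promoter windows of RefSeq (GRCm38.p6), which run from 250 bases before to 50 bases after a gene's start. It was searched on both strands as CCAAT and CCACG parted by 9 bases of any kind. Of the 30 members with a window, 9 held it, against 37 of all 27025 genes with a window (0.137%). The count of 37 includes these 9. Members were listed as genes of the response that this element serves, so their share is a description and not a test. The elements of Hspa5 and Hsp90b1 (genes of the main ER chaperones), Derl3 and Creld2, with 20 bases on either side, are printed because these genes stood far higher in splenomegaly masses. Those of Dnajc3, Syvn1 and Canx are printed because Dnajc3 and Syvn1 fell in lymphomas and Canx did not pass the test between S62A lymphomas and splenomegaly masses. All are written 5′ to 3′ on the strand of the gene, with the fixed bases of the element in capitals (CGTGG and ATTGG where the element lies in reverse).
Hspa5 (chr2:34772005-34772063, plus strand): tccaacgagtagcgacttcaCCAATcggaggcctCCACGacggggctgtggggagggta
Hsp90b1, far copy (chr10:86705618-86705676, minus strand): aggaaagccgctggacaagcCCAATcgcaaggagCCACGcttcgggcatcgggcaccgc
Hsp90b1, near copy (chr10:86705513-86705571, minus strand): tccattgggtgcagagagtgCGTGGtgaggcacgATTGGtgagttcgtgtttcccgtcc
Derl3 (chr10:75893222-75893280, plus strand): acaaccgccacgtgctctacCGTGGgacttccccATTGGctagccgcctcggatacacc
Creld2 (chr15:88819500-88819558, plus strand): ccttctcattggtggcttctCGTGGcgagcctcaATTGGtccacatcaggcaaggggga
Dnajc3 (chr14:118937807-118937865, plus strand): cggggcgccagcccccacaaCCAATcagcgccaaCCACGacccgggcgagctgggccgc
Syvn1 (chr19:6046512-6046570, plus strand): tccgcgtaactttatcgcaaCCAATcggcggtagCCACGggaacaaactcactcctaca
Canx (chr11:50325780-50325838, minus strand): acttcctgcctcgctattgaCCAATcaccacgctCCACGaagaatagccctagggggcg

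**Figure D1:**
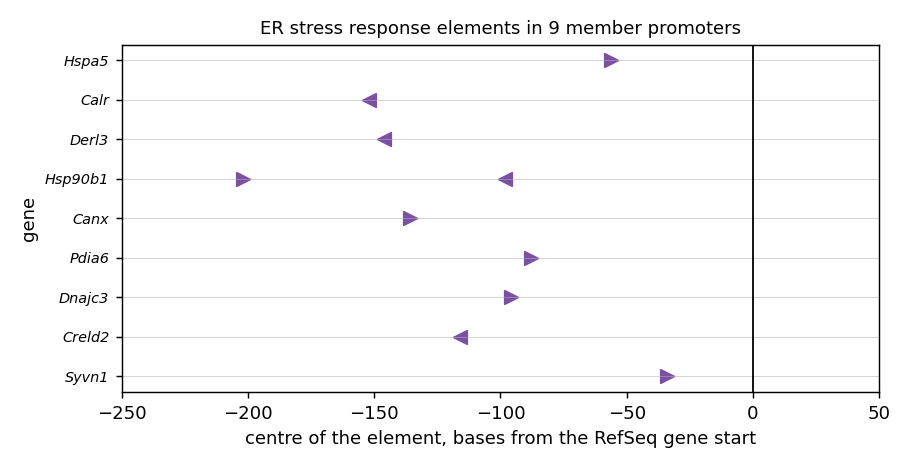
Position of each ER stress response element in the promoters of the 9 members that hold it, as the distance of its centre in bases from the RefSeq gene start (vertical line at 0). Arrowheads to the right mark the forward and to the left the reverse orientation. Hsp90b1 has 2 elements, 202 and 98 bases before the start, and the element of Syvn1 lies nearest to the start, at 34 bases.

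Calr and Pdia6 were the other members with the element. The remaining motifs were each found in 1 or 5 of the 30 members with a window. The share of all genes with each motif is given in brackets. TGACGTGG, a form of the UPR element bound by XBP1 and ATF6, was found in the window of Sec24d only (0.714% of all genes), and TGACGTGA, a related form, in that of Hspa5 only (0.507%). TGATGCAA, the amino acid response element bound by ATF4 with C/EBP partners, was found in Herpud1 only (1.03%). CACGTG, the E-box bound by MYC and MAX, was found in 5 members, Calr, Dnajb9, Derl3, Fkbp11 and Ssr1 (8.09%). The search for each motif covered both strands of the same windows, and a match shows the letters only, not that a factor was bound.

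Reads in genes ranged from 9577373 to 22437969 per library, with the shallowest library in the splenomegaly group. Myc stood at 82.8 ± 2.82 CPM (SD, n = 3) in controls, 143 ± 13.4 in the T58A lymphomas, 173 ± 26.1 in the S62A lymphomas and 91.9 ± 7.89 in the splenomegaly masses, where CPM is the usual read count relative to library size, here after TMM scaling. The summed CPM of 10 T cell markers, to which the label of T lymphocytes was compared, ran from 9500 to 10200 in controls, 3640 to 4720 in T58A lymphomas, 1680 to 4760 in S62A lymphomas and 1000 to 1030 in splenomegaly masses. The tissue is a mixture of cells, and in bulk RNA fewer cells of a type and less RNA per cell cannot be told apart.

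Splenomegaly masses stood apart from the other groups in most of the set. Against control tissue 36 of the 37 members rose and none fell (0 of 37), and against S62A lymphomas 32 rose and 0 fell. Lymphomas differed from control by less, and in fewer members: 24 rose and 2 fell in T58A lymphomas, and 15 rose and 2 fell in S62A lymphomas. A call is an adjusted p under 0.05 in edgeR's quasi-likelihood test, with adjustment by Benjamini and Hochberg over all 15606 genes tested. The 3 comparisons with control share the same 3 control libraries.

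The counts are to be read against those of all genes. In the T58A comparison 18.8% of all genes tested rose and 17.4% fell, against 64.9% and 5.41% of members. In the S62A comparison 21.9% rose and 22.2% fell, against 40.5% and 5.41% of members. Among splenomegaly masses and controls 22.9% of genes rose and 26.3% fell, against 97.3% and 0% of members. Between splenomegaly masses and S62A lymphomas 25.6% rose and 28.6% fell, against 86.5% and 0% of members. Between the lymphoma groups 0.859% of genes were higher in S62A and 2.29% lower, against 0 and 1 of the 37 members. The median log2 fold change of the members was 0.64 in T58A lymphomas, 0.38 in the S62A lymphomas and 2.42 in the splenomegaly masses, each against control, while the medians of all genes were 0.01, 0 and -0.08.

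**Figure D2:**
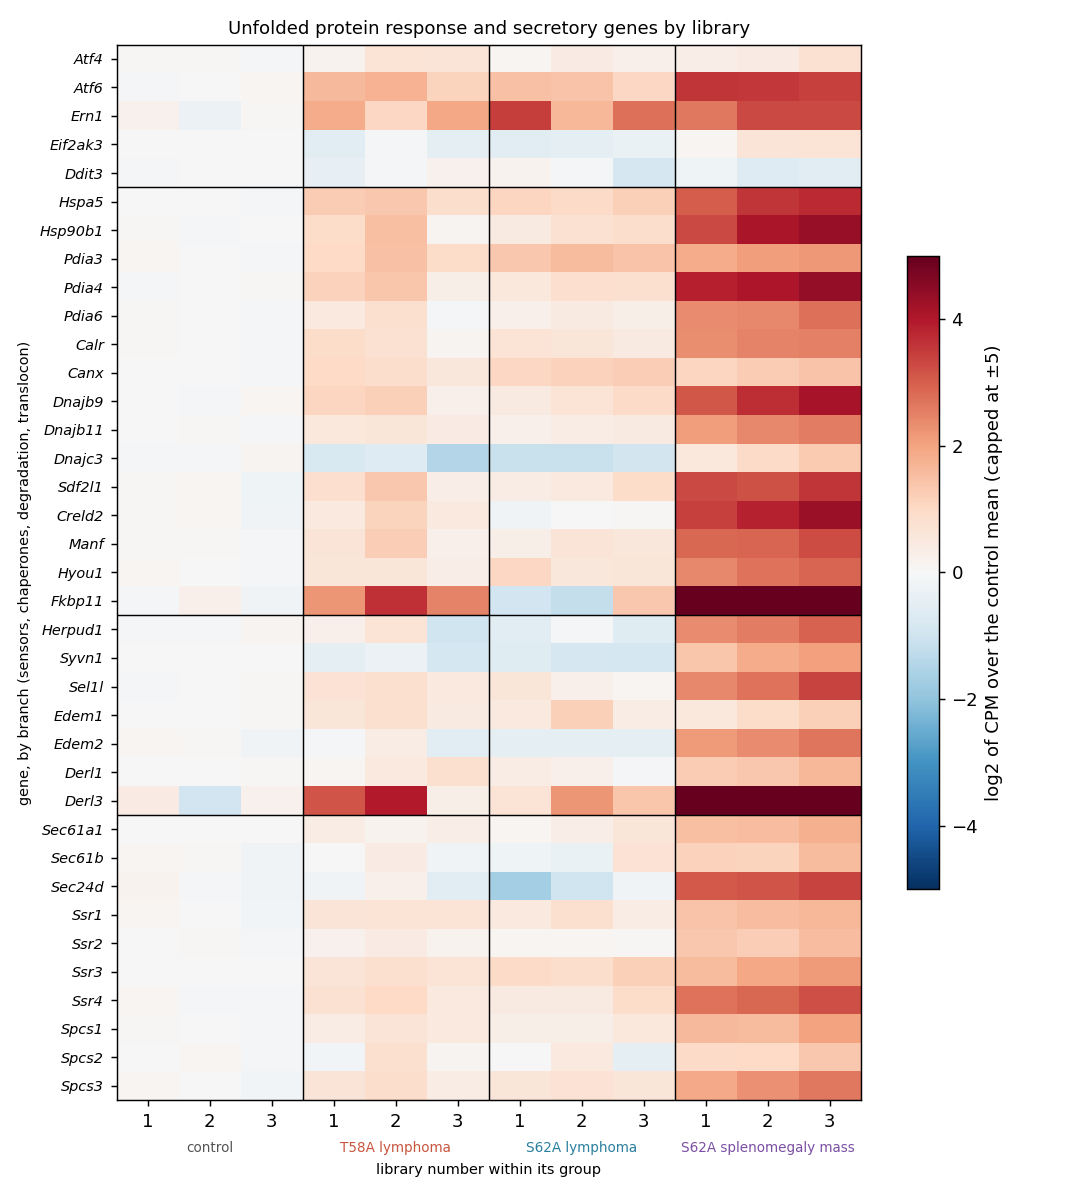
Log2 of each library's CPM over the control mean for the 37 members (rows, by branch, parted by horizontal lines) in 12 libraries (columns, parted by group). Red is above and blue below the control mean, and colours are capped at 5 in either direction, which hides the full height of Fkbp11 and Derl3. The splenomegaly columns are red in nearly every row, while Dnajc3 and Syvn1 are blue in both lymphoma groups.

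In splenomegaly masses markers of several other cell types, antibody-secreting cells among them, rose with the set. There 9 of 10 T cell markers and all 6 thymic epithelium markers fell. In lymphomas the marker lists did not move alike. The summed CPM of 9 plasma cell markers was 294 to 349 in controls and 18400 to 29200 in splenomegaly masses, where all 9 rose. It was 1700, 2950 and 429 in T58A lymphomas 1 to 3, where 5 of 9 rose, and 1210, 699 and 2390 in S62A lymphomas 1 to 3, where 3 of 9 rose. Jchain, which joins antibodies into polymers, stood at 64.1 to 80.7 CPM in controls and at 12700, 17000 and 19700 CPM in splenomegaly masses. The 11 B cell markers summed to 115 to 128 CPM in controls, 42.1 to 499 in T58A lymphomas, 34 to 52.4 in S62A lymphomas and 2310 to 3050 in splenomegaly masses. All 11 rose in splenomegaly masses, 5 rose and 0 fell in T58A lymphomas, and 0 rose and 5 fell in S62A lymphomas. Pax5, which defines B cells, had 0 reads in S62A lymphomas 1 and 3. Macrophage markers, 9 in all, summed to 616 to 723 CPM in controls, 1820 to 2580 in T58A lymphomas, 1540 to 2210 in S62A lymphomas and 4340 to 7920 in splenomegaly masses, and the 6 thymic epithelium markers summed to 2200 to 2400 CPM in controls and to 12.7 to 124 in the other groups. The 8 fibroblast markers summed to 262 to 314 CPM in controls, 520 to 1760 in T58A lymphomas (5 rose), 329 to 1460 in S62A lymphomas (4 rose) and 695 to 1210 in splenomegaly masses (4 rose). The 6 dendritic cell markers summed to 35.9 to 43.4 CPM in controls, 22.7 to 72.6 in T58A lymphomas, 25.7 to 52.6 in S62A lymphomas and 157 to 360 in splenomegaly masses, where 5 rose. Of the dendritic cell markers 1 rose and 1 fell in T58A lymphomas, and 0 rose and 2 fell in S62A lymphomas. The T58A shares, 16.7% each way, were near those of all genes (18.8% and 17.4%). Of the 9 macrophage markers 6 rose in T58A and 6 in S62A lymphomas. Of the 10 T cell markers 5 and 7 fell in these groups, and of the 6 thymic epithelium markers 5 and 6. The part of all these cell types in the members' differences was not tested.

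The sensors and factors differed among themselves. Atf6, the membrane-bound factor that is cleaved under stress, held 22.7, 24.2 and 26.5 CPM in controls, 75, 82.6 and 52.6 in the T58A lymphomas, 68, 64.9 and 50.3 in the S62A lymphomas and 291, 282 and 265 in the splenomegaly masses. No library of any other group overlapped the controls, and the splenomegaly libraries lay far above both lymphoma groups, which overlapped each other. Atf6 rose by 1.52 ± 0.17 on the log2 scale (SE) in T58A lymphomas (adjusted p = 0.000104) and by 1.32 ± 0.17 in S62A lymphomas (adjusted p = 0.000174). In splenomegaly masses Atf6 rose by 3.51 ± 0.19 against control (adjusted p = 6.27e-07) and by 2.19 ± 0.18 against S62A lymphomas (adjusted p = 5.59e-06).

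Ern1, which encodes the sensor and nuclease IRE1, held 4.7, 3.31 and 4.2 CPM in controls, 14.9, 8.26 and 15.7 in the T58A lymphomas, 44.2, 12.7 and 27.3 in the S62A lymphomas and 25.5, 39.7 and 40.6 in the splenomegaly masses. All 9 libraries outside the control group lay above all controls, and S62A lymphoma 1 was the highest of all libraries. Ern1 rose by 1.67 ± 0.42 in T58A lymphomas (adjusted p = 0.0101), 2.78 ± 0.43 in S62A lymphomas (adjusted p = 0.000522) and 3.11 ± 0.44 in splenomegaly masses (adjusted p = 0.000201). The difference of splenomegaly masses from S62A lymphomas, 0.33 ± 0.4, did not pass the test (adjusted p = 0.505). Per transcript length Ern1 stayed the lowest member in controls (1.34 ± 0.231 FPKM, n = 3), T58A lymphomas (4.2 ± 1.33) and splenomegaly masses (10.8 ± 2.73).

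Eif2ak3, the gene of the sensor kinase PERK, held 84.3, 82.8 and 81.6 CPM in controls and 89.1, 128 and 134 in splenomegaly masses. T58A lymphomas held 55.5, 78.1 and 59.5 CPM and S62A lymphomas 57, 60.7 and 65.3, all below the lowest control. Neither lymphoma difference passed the test, at -0.36 ± 0.17 (adjusted p = 0.113) and -0.44 ± 0.17 (adjusted p = 0.0522). In splenomegaly masses Eif2ak3 rose by 0.5 ± 0.17 against control (adjusted p = 0.029), a call that was lost without any 1 of the 3 controls or splenomegaly masses 2 or 3 (0.43 to 0.71 with a library left out, adjusted p up to 0.0946), and by 0.94 ± 0.17 against S62A lymphomas (adjusted p = 0.000824).

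Atf4, the factor translated when PERK is active, held 281, 285 and 253 CPM in controls, 309, 434 and 427 in the T58A lymphomas, 294, 364 and 325 in the S62A lymphomas and 340, 364 and 467 in the splenomegaly masses. The controls lay below every other library, by little in T58A lymphoma 1 and S62A lymphoma 1. Atf4 rose by 0.51 ± 0.16 in T58A lymphomas (adjusted p = 0.0299) and 0.52 ± 0.16 in splenomegaly masses (adjusted p = 0.0221), and its difference in S62A lymphomas was 0.26 ± 0.16 (adjusted p = 0.211). The T58A call was lost without any 1 of the controls, T58A lymphoma 2 or T58A lymphoma 3 (0.42 to 0.66 with a library left out, adjusted p up to 0.108), and the splenomegaly call without any 1 of the controls or splenomegaly mass 3 (0.43 to 0.65, adjusted p up to 0.0826).

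Ddit3, the gene of CHOP, a factor that promotes death under lasting stress, was the only member that did not rise in splenomegaly masses. It held 34.9, 37.7 and 37.5 CPM in controls, 27.9, 35.4 and 43 in the T58A lymphomas, 41.4, 34.2 and 20.5 in the S62A lymphomas and 31.4, 23.6 and 24.9 in the splenomegaly masses, where every library lay below every control. The log2 differences from control were -0.05 ± 0.25 (adjusted p = 0.888), -0.2 ± 0.25 (adjusted p = 0.542) and -0.46 ± 0.25 (adjusted p = 0.141) in that order, and fitting splenomegaly masses and controls alone called the last of these as a fall. Ddit3 overlaps Mars, the gene of a transfer RNA synthetase, on the other strand, and how reads were counted by strand is not given in the sources used here. Mars rose by 0.67 ± 0.15 in splenomegaly masses (adjusted p = 0.00317) and by 0.55 ± 0.15 in S62A lymphomas (adjusted p = 0.0102). The T58A difference of Mars, 0.39 ± 0.15, did not pass the test (adjusted p = 0.0547).

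**Figure D3:**
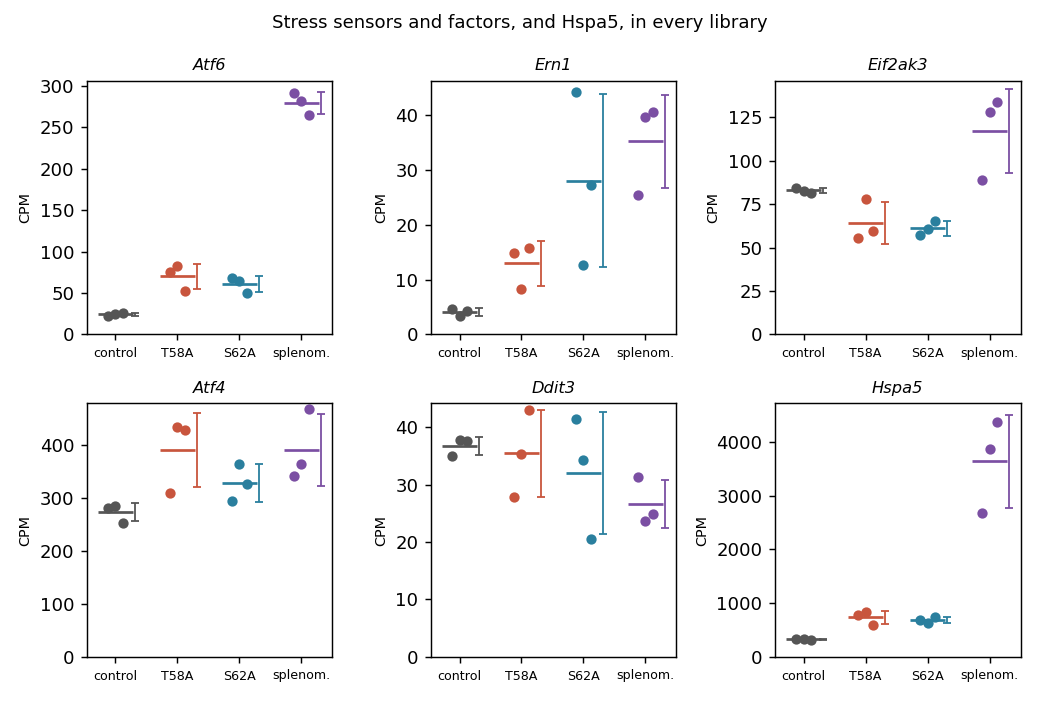
CPM of the 5 sensors and factors and of the chaperone gene Hspa5 in each library (points), with the group mean (horizontal line) and SD (bar, n = 3). Atf6 and Hspa5 lie far higher in the 3 splenomegaly libraries, at 265 to 291 and 2680 to 4370 CPM, while Ddit3 lies at 23.6 to 31.4 CPM there, below the controls.

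Against control the chaperones and folding enzymes had the highest median difference of the 4 branches in T58A lymphomas, S62A lymphomas and splenomegaly masses. Of the 15 members 13 rose and 1 fell in T58A lymphomas, 7 rose and 1 fell in S62A lymphomas, and 15 rose in splenomegaly masses, with median log2 fold changes of 0.83, 0.61 and 3.04. The shares up were 86.7%, 46.7% and 100%, beside 18.8%, 21.9% and 22.9% of all genes. Their summed CPM was 2673 to 2831 in controls, 3544 to 5744 in T58A lymphomas, 4472 to 4881 in S62A lymphomas and 16078 to 25163 in splenomegaly masses. Against S62A lymphomas 14 of the 15 rose in splenomegaly masses, Canx being the exception.

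Hspa5, the gene of the Hsp70 chaperone BiP, which binds unfolded proteins and the sensors alike (chromosome 2 from 34627610 to 34632049, mm9), held 333, 332 and 311 CPM in controls. It held 778, 832 and 598 CPM in T58A lymphomas, 679, 630 and 749 in the S62A lymphomas and 2680, 3870 and 4370 in the splenomegaly masses. Lymphomas of both kinds lay above all controls and overlapped each other, and splenomegaly masses lay above all lymphomas. Hspa5 rose by 1.18 ± 0.19 in T58A lymphomas (adjusted p = 0.000794), 1.08 ± 0.19 in S62A lymphomas (adjusted p = 0.00103) and 3.48 ± 0.2 in splenomegaly masses, an 11.2-fold difference (adjusted p = 1.05e-06). Against S62A lymphomas the splenomegaly difference was 2.41 ± 0.19 (adjusted p = 5.85e-06).

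Hsp90b1, the ER form of Hsp90, moved further than Hspa5 in splenomegaly masses and less evenly in lymphomas. It held 418, 382 and 390 CPM in controls and 3950, 6750 and 8060 in splenomegaly masses, a rise of 3.98 ± 0.36 (adjusted p = 1.12e-05). In T58A lymphomas it held 749, 1130 and 436 CPM, with T58A lymphoma 3 near the controls, and rose by 0.96 ± 0.32 (adjusted p = 0.0374), a call lost without any 1 of the controls, T58A lymphoma 1 or T58A lymphoma 2 (0.57 to 1.24 with a library left out, adjusted p up to 0.172). In S62A lymphomas it held 541, 676 and 739 CPM, and the difference of 0.72 ± 0.32 did not pass the test (adjusted p = 0.0909). Per transcript length Hsp90b1 was the highest member in splenomegaly masses (2900 ± 986 FPKM), ahead of Hspa5 (1530 ± 375 FPKM) and Calr (1270 ± 108 FPKM), with SDs that leave the order of the last 2 unsettled.

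The disulfide isomerase genes, whose products form and rearrange disulfide bonds, did not move alike. Pdia3 held 384, 361 and 342 CPM in controls, 732, 1000 and 688 in the T58A lymphomas, 917, 1090 and 964 in the S62A lymphomas and 1320, 1560 and 1640 in the splenomegaly masses. Pdia4 held 79.4, 83.9 and 87.3 CPM in controls, 185, 216 and 103 in the T58A lymphomas, 119, 150 and 147 in the S62A lymphomas and 1220, 1380 and 1750 in the splenomegaly masses. Both genes lay above the controls in every other library, but S62A lymphomas came close to splenomegaly masses in Pdia3 and not in Pdia4. Pdia3 rose by 1.16 ± 0.16, 1.45 ± 0.16 and 2.06 ± 0.16 in the 3 groups against control (adjusted p = 0.000348, 6.45e-05 and 5.24e-06), and by 0.6 ± 0.16 from S62A lymphomas to splenomegaly masses (adjusted p = 0.00764). Pdia4 rose by 4.12 ± 0.27 in splenomegaly masses, a 17.3-fold difference (adjusted p = 1.72e-06), and by 3.39 ± 0.26 against S62A lymphomas (adjusted p = 4.53e-06). In lymphomas Pdia4 rose by 1.01 ± 0.24 in T58A (adjusted p = 0.00743) and 0.73 ± 0.24 in S62A (adjusted p = 0.0271), the latter lost without any 1 of the controls, S62A lymphoma 2 or S62A lymphoma 3 (0.67 to 0.83 with a library left out, adjusted p up to 0.0846). Pdia6 did not pass the test in either lymphoma group and rose by 2.52 ± 0.2 in splenomegaly masses (adjusted p = 5.62e-06).

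The lectin chaperones, which hold glycoproteins while they fold, parted from each other. Canx, the gene of membrane-bound calnexin, held 321, 320 and 306 CPM in controls, 635, 574 and 468 in the T58A lymphomas, 642, 700 and 748 in the S62A lymphomas and 661, 770 and 837 in the splenomegaly masses. S62A lymphomas and splenomegaly masses overlapped, and every library outside the control group lay above the controls. Canx rose by 0.83 ± 0.14 in T58A lymphomas (adjusted p = 0.00106), 1.14 ± 0.14 in S62A lymphomas (adjusted p = 0.000113) and 1.26 ± 0.14 in splenomegaly masses (adjusted p = 4.04e-05), and its difference between the latter 2 groups, 0.12 ± 0.14, did not pass the test (adjusted p = 0.484). Calr, the gene of soluble calreticulin, rose by 2.44 ± 0.19 in splenomegaly masses (adjusted p = 4.49e-06) and by 1.86 ± 0.18 there against S62A lymphomas (adjusted p = 2e-05). In T58A and S62A lymphomas Calr rose by 0.64 ± 0.18 (adjusted p = 0.0172) and 0.58 ± 0.18 (adjusted p = 0.0226), and with a library left out these ran from 0.48 to 0.84 and from 0.52 to 0.64. The T58A call was lost without control 2, control 3, T58A lymphoma 1 or T58A lymphoma 2 (adjusted p up to 0.0701), and the S62A call without any 1 of the controls, S62A lymphoma 1 or S62A lymphoma 2 (adjusted p up to 0.0753).

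Fkbp11, a prolyl isomerase gene known for its level in secretory cells (chromosome 15 from 98554799 to 98558629, mm9), was the lowest chaperone member in controls. It held 0.929, 1.16 and 0.866 CPM in controls, 4.56, 12.5 and 5.52 in the T58A lymphomas, 0.509, 0.431 and 2.53 in the S62A lymphomas and 74, 63.6 and 83.8 in the splenomegaly masses. T58A lymphomas lay above all controls and S62A lymphomas straddled them. Fkbp11 rose by 2.93 ± 0.58 in T58A lymphomas (adjusted p = 0.00296) and 6.22 ± 0.65 in splenomegaly masses (adjusted p = 2.8e-05), and its difference in S62A lymphomas was 0.24 ± 0.61 (adjusted p = 0.773). It was the only member that differed between the lymphoma groups, lower in S62A by -2.69 ± 0.59 (adjusted p = 0.0365), where the S62A libraries rested on 8, 6 and 38 reads. That call was lost without T58A lymphoma 2, S62A lymphoma 1 or S62A lymphoma 2 (-3.98 to -2.12 with a library left out, adjusted p up to 0.109). It was also lost when the lymphoma groups were fitted alone, a fit in which 0 of 14138 genes were called. Of the 11 B cell markers 6 were also lower in S62A than in T58A lymphomas (sums of 34 to 52.4 against 42.1 to 499 CPM), and their part in the difference of Fkbp11 was not tested.

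Creld2, a folding factor with isomerase activity that is induced by ER stress, rose by 3.91 ± 0.25 in splenomegaly masses (adjusted p = 1.72e-06) and by 3.93 ± 0.25 there against S62A lymphomas (adjusted p = 2.1e-06). It held 46.1, 47.4 and 39.1 CPM in controls, 62.8, 95.1 and 61.5 in the T58A lymphomas, 38.8, 44.8 and 46.5 in the S62A lymphomas and 478, 629 and 882 in the splenomegaly masses. S62A lymphomas overlapped controls, and T58A lymphomas lay above both. In T58A lymphomas Creld2 rose by 0.73 ± 0.23 (adjusted p = 0.0278), lost without any 1 of the controls or T58A lymphoma 2 (0.48 to 0.84 with a library left out, adjusted p up to 0.119).

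Dnajc3, the gene of the cochaperone p58IPK, which stimulates BiP and restrains PERK (chromosome 14 from 119337154 to 119380924, mm9), went down in lymphomas and up in splenomegaly masses. It held 252, 254 and 291 CPM in controls, 155, 171 and 95.6 in the T58A lymphomas, 123, 124 and 139 in the S62A lymphomas and 378, 520 and 664 in the splenomegaly masses. The 3 ranges, lymphomas, controls and splenomegaly masses, did not overlap. Dnajc3 fell by 0.92 ± 0.23 on the log2 scale in T58A lymphomas (adjusted p = 0.00987) and by 1.05 ± 0.23 in S62A lymphomas (adjusted p = 0.00402), and rose by 0.97 ± 0.23 in splenomegaly masses (adjusted p = 0.00493). Splenomegaly masses held 4.05 times the level of S62A lymphomas (log2 difference 2.02 ± 0.24, adjusted p = 5.32e-05).

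The other 6 chaperone members, Dnajb9, Dnajb11, Sdf2l1, Manf, Hyou1 and Pdia6, rose by 2.37 to 3.7 in splenomegaly masses. Dnajb9 and Dnajb11 are cochaperones of BiP, Sdf2l1 binds Dnajb11 protein, and Hyou1 is an exchange factor of BiP. Dnajb9 had the largest log2 fold change of these there (3.7 ± 0.3, adjusted p = 5.5e-06), at 309 ± 103 CPM (SD, n = 3). In T58A lymphomas all of these but Pdia6 rose, by 0.52 to 0.9, while in S62A lymphomas Dnajb11 (0.36 ± 0.13, adjusted p = 0.0377) and Hyou1 (0.76 ± 0.17, adjusted p = 0.00443) alone rose. Of the T58A calls those of Dnajb9 (0.72 to 1.14 with a library left out) and Hyou1 (0.47 to 0.61) were lost without any 1 of the controls, T58A lymphoma 1 or T58A lymphoma 2, with an adjusted p up to 0.0845 and 0.11. That of Manf (0.45 to 0.96) was lost without any 1 of the controls or T58A lymphoma 2, and that of Sdf2l1 (0.59 to 1.12) without control 3 or T58A lymphoma 2, with an adjusted p up to 0.0723 and 0.0573. The S62A call of Dnajb11 (0.31 to 0.41) was lost without any 1 of the controls, S62A lymphoma 2 or S62A lymphoma 3, with an adjusted p up to 0.12.

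**Figure D4:**
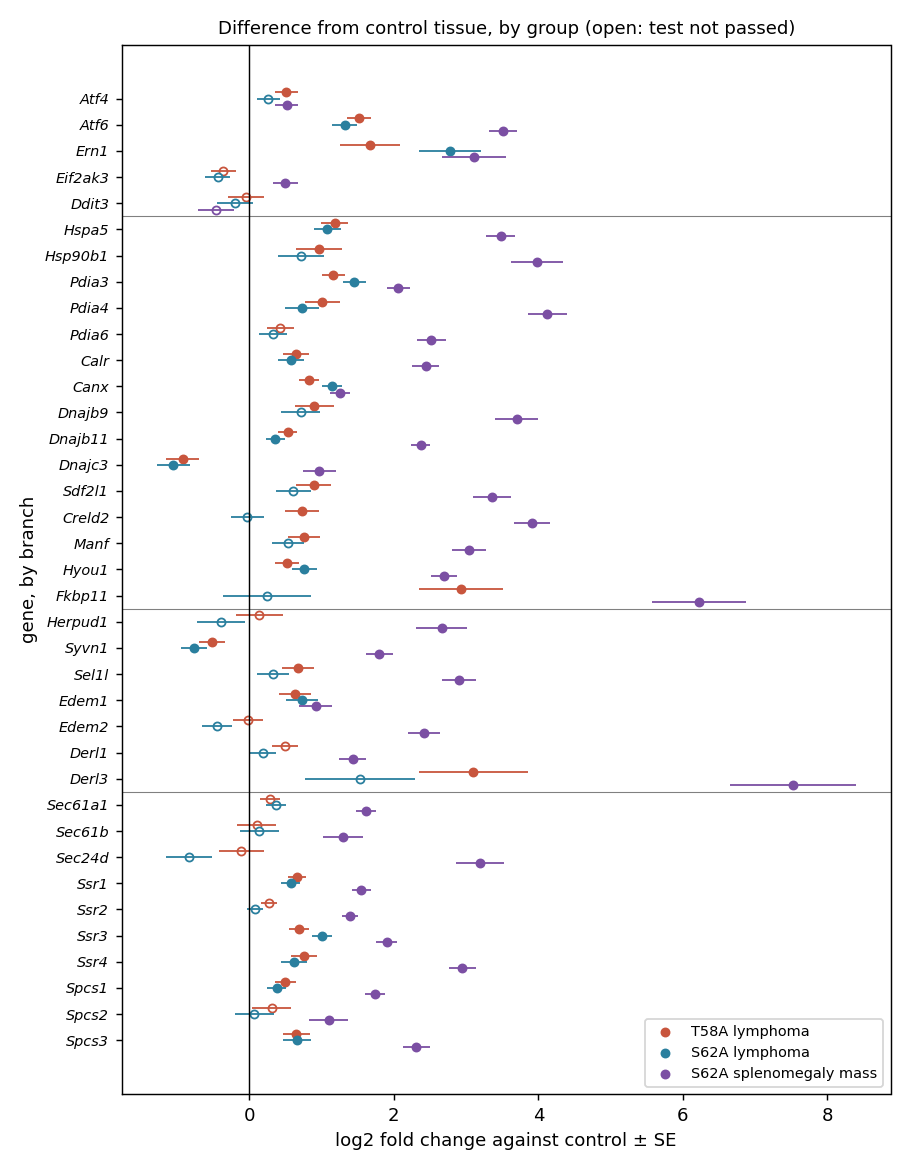
Log2 fold change against control with its SE (horizontal bars) for each member in T58A lymphomas, S62A lymphomas and S62A splenomegaly masses, 3 libraries against the same 3 controls. Filled points passed the test at an adjusted p under 0.05 and open points did not. Splenomegaly points lie to the right of both lymphoma points in most rows, up to 7.52 for Derl3, while Ddit3 is open in all 3 groups.

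Degradation genes were mixed in lymphomas and higher in splenomegaly masses. Of 7 members 3 rose and 1 fell in T58A lymphomas, 1 rose and 1 fell in S62A lymphomas, and all 7 rose in splenomegaly masses, with medians of 0.5, 0.19 and 2.42. The shares up were 42.9%, 14.3% and 100%, beside 18.8%, 21.9% and 22.9% of all genes. Those down were 14.3%, 14.3% and 0%, beside 17.4%, 22.2% and 26.3% of all genes. In S62A lymphomas neither share thus stood above that of all genes. Syvn1, the gene of the ubiquitin ligase HRD1 at the centre of this pathway (chromosome 19 from 6046576 to 6053718, mm9), held 121, 121 and 119 CPM in controls, 88.8, 98.3 and 65.8 in the T58A lymphomas, 79.7, 67 and 65 in the S62A lymphomas and 317, 437 and 502 in the splenomegaly masses. As with Dnajc3, lymphomas lay below and splenomegaly masses above all controls. Syvn1 fell by 0.77 ± 0.18 in S62A lymphomas (adjusted p = 0.0064) and rose by 1.8 ± 0.19 in splenomegaly masses (adjusted p = 2.77e-05), 2.57 ± 0.19 above S62A lymphomas (adjusted p = 4.41e-06). It fell by 0.51 ± 0.18 in T58A lymphomas (adjusted p = 0.0476), a call lost without any 1 of the controls, T58A lymphoma 1 or T58A lymphoma 3 (-0.65 to -0.36 with a library left out, adjusted p up to 0.157). Syvn1 overlaps Mrpl49, a mitochondrial ribosomal gene, on the other strand, and Mrpl49 fell by 0.47 ± 0.12 in splenomegaly masses (adjusted p = 0.00628) and by 0.35 ± 0.12 in T58A lymphomas (adjusted p = 0.0341).

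Sel1l, whose product holds HRD1 in its complex, held 83.9, 84.7 and 91.2 CPM in controls, 141, 150 and 123 in the T58A lymphomas, 130, 103 and 92.2 in the S62A lymphomas and 457, 571 and 913 in the splenomegaly masses. It thus went above controls in T58A lymphomas while its partner Syvn1 went below. Sel1l rose by 0.67 ± 0.22 in T58A lymphomas (adjusted p = 0.0364), lost without any 1 of the controls, T58A lymphoma 1 or T58A lymphoma 2 (0.6 to 0.75 with a library left out, adjusted p up to 0.105), and by 2.9 ± 0.24 in splenomegaly masses (adjusted p = 6.19e-06). In S62A lymphomas its difference was 0.33 ± 0.22 (adjusted p = 0.259).

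Herpud1, a stress-induced membrane protein of the same complex, held 76.2, 75.5 and 87.6 CPM in controls, 94.7, 129 and 40.5 in the T58A lymphomas, 55.6, 73.6 and 52.9 in the S62A lymphomas and 412, 476 and 624 in the splenomegaly masses. T58A lymphomas lay on both sides of the controls. Herpud1 rose by 2.66 ± 0.35 in splenomegaly masses (adjusted p = 0.000118) and by 3.05 ± 0.35 there against S62A lymphomas (adjusted p = 4.9e-05), and neither lymphoma difference passed the test (adjusted p = 0.763 and 0.35).

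The derlins, membrane proteins that lead misfolded chains out of the ER, differed in size of change. Derl3 (chromosome 10 from 75356143 to 75358686, mm9) held 2.17, 0.826 and 1.86 CPM in controls, 14.5, 25.5 and 1.96 in the T58A lymphomas, 2.61, 7.4 and 4.27 in the S62A lymphomas and 206, 299 and 399 in the splenomegaly masses. T58A lymphoma 3 lay within the controls while the other two lay above. Derl3 rose by 7.52 ± 0.87 in splenomegaly masses (adjusted p = 5.3e-05), 5.99 ± 0.8 above S62A lymphomas (adjusted p = 0.00012), and by 3.1 ± 0.75 in T58A lymphomas (adjusted p = 0.0085, and 2.31 to 3.61 with a library left out). Its difference in S62A lymphomas was 1.53 ± 0.76 (adjusted p = 0.123). Derl1 rose in splenomegaly masses by 1.43 ± 0.19 (adjusted p = 0.000115), with 0.5 ± 0.18 in T58A lymphomas (adjusted p = 0.0517) and 0.19 ± 0.18 in S62A lymphomas, neither past the test.

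Edem1 and Edem2 encode mannosidase-like proteins that mark glycoproteins for destruction. Edem1 held 1100, 1110 and 1180 CPM in controls, 1720, 1960 and 1560 in the T58A lymphomas, 1590, 2550 and 1470 in the S62A lymphomas and 1640, 2160 and 2610 in the splenomegaly masses. All 3 of the latter groups overlapped each other and lay above the controls. Edem1 rose by 0.63 ± 0.22 (adjusted p = 0.0461), 0.73 ± 0.22 (adjusted p = 0.0219) and 0.92 ± 0.23 (adjusted p = 0.00595) in that order. The T58A call was lost without any 1 of the 6 libraries compared (0.53 to 0.71 with a library left out, adjusted p up to 0.138) and the S62A call without any 1 of the controls or S62A lymphoma 2 (0.44 to 0.88, adjusted p up to 0.0942). Edem1 did not differ past the threshold between splenomegaly masses and S62A lymphomas (0.19 ± 0.22, adjusted p = 0.486). Edem2 rose by 2.42 ± 0.22 in splenomegaly masses (adjusted p = 1.01e-05) and stood at -0.02 ± 0.21 and -0.45 ± 0.21 in T58A and S62A lymphomas (adjusted p = 0.959 and 0.0941).

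Translocon, signal peptidase and coat genes differed by less than the chaperones. Of 10 members 5 rose in T58A lymphomas, 5 in S62A lymphomas and all 10 in splenomegaly masses, with medians of 0.41, 0.38 and 1.68, and none fell (0 of 10). The 5 were Ssr1, Ssr3, Ssr4, Spcs1 and Spcs3 in both lymphoma groups. The shares up against control were 50%, 50% and 100%, beside 18.8%, 21.9% and 22.9% of all genes. All 10 also rose from S62A lymphomas to splenomegaly masses, by 0.89 to 4.02.

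The Ssr genes encode the translocon-associated protein complex, which assists entry of nascent chains. Ssr3 held 250, 249 and 251 CPM in controls, 386, 431 and 397 in the T58A lymphomas, 483, 461 and 564 in the S62A lymphomas and 745, 964 and 1080 in the splenomegaly masses. The 4 ranges did not overlap. Ssr3 rose by 0.69 ± 0.14 (adjusted p = 0.00346), 1.01 ± 0.14 (adjusted p = 0.000304) and 1.9 ± 0.15 (adjusted p = 4.49e-06) in that order, and its difference between the lymphoma groups, 0.31 ± 0.14, did not pass the test (adjusted p = 0.209). Ssr4 held 63.6, 56.6 and 56.5 CPM in controls, 101, 116 and 82.7 in the T58A lymphomas, 80.2, 80 and 111 in the S62A lymphomas and 388, 427 and 555 in the splenomegaly masses, where it rose by 2.95 ± 0.19 (adjusted p = 1.92e-06). Its lymphoma libraries lay above the controls, with 0.76 ± 0.18 in T58A (adjusted p = 0.00798) and 0.62 ± 0.18 in S62A (adjusted p = 0.0178), the latter lost without control 2, control 3 or S62A lymphoma 3 (0.44 to 0.7 with a library left out, adjusted p up to 0.0655). Ssr2 rose in splenomegaly masses (1.39 ± 0.11, adjusted p = 6.39e-06) and in neither lymphoma group.

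Sec61a1 and Sec61b, subunits of the channel itself, rose in splenomegaly masses by 1.61 ± 0.14 (adjusted p = 1.02e-05) and 1.3 ± 0.28 (adjusted p = 0.00269) and passed the test in neither lymphoma group. Of the signal peptidase subunits, Spcs3 held 142, 135 and 122 CPM in controls, 206, 247 and 171 in the T58A lymphomas, 203, 222 and 205 in the S62A lymphomas and 494, 642 and 835 in the splenomegaly masses. Every lymphoma library lay above the controls and below the splenomegaly masses. Spcs3 rose by 0.65 ± 0.19 (adjusted p = 0.0193), 0.66 ± 0.19 (adjusted p = 0.0144) and 2.31 ± 0.19 (adjusted p = 7.16e-06), in that order. The T58A call (0.5 to 0.77 with a library left out) was lost without control 2, control 3 or T58A lymphoma 2, and the S62A call (0.6 to 0.71) without control 3, with an adjusted p up to 0.0769 and 0.058. Spcs1 and Spcs2 rose in splenomegaly masses by 1.74 ± 0.14 (adjusted p = 5.18e-06) and 1.1 ± 0.27 (adjusted p = 0.00589). In lymphomas Spcs1 rose by 0.5 ± 0.14 in T58A (adjusted p = 0.0144), lost without control 2, control 3 or T58A lymphoma 2, and by 0.38 ± 0.13 in S62A (adjusted p = 0.0415), lost without any 1 of the controls, S62A lymphoma 2 or S62A lymphoma 3 (0.42 to 0.55 and 0.28 to 0.42 with a library left out, adjusted p up to 0.127). Spcs1 overlaps Glt8d1 on the other strand, which rose by 0.47 ± 0.17 in splenomegaly masses (adjusted p = 0.0403). Glt8d1 did not pass the test in T58A or S62A lymphomas (-0.3 ± 0.17 and -0.22 ± 0.17, adjusted p = 0.193 and 0.312).

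Sec24d, a cargo-binding subunit of the COPII coat, stood apart within its branch. It held 24.5, 20.6 and 19.1 CPM in controls, 19.1, 25.8 and 14.6 in the T58A lymphomas, 6.62, 10.8 and 18.7 in the S62A lymphomas and 178, 188 and 223 in the splenomegaly masses. T58A lymphomas overlapped the controls and S62A lymphomas lay below them. Sec24d rose by 3.19 ± 0.33 in splenomegaly masses (adjusted p = 2.79e-05) and by 4.02 ± 0.35 there against S62A lymphomas (adjusted p = 8.85e-06), and its S62A difference from control, -0.83 ± 0.32, did not pass the test (adjusted p = 0.0534).

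Between the lymphoma groups 36 of the 37 members did not pass the test. All 15 members that rose in S62A lymphomas also rose in T58A lymphomas, and Dnajc3 and Syvn1 fell in both. The 9 members called in T58A lymphomas alone were Atf4, Hsp90b1, Dnajb9, Sdf2l1, Creld2, Manf, Fkbp11, Sel1l and Derl3. Of these, the difference between the lymphoma groups itself passed the test for Fkbp11 alone, and the difference of Creld2, -0.75 ± 0.23, did not (adjusted p = 0.0888). The counts in lymphomas moved with single libraries, those of all genes as well as those of members. Members up in T58A lymphomas came to 13, 12 and 12 without control 2, control 3 or T58A lymphoma 2. Over all genes, those up came to 1973, 2095 and 2587 in these fits, against 2938 with every library. Members up in S62A lymphomas came to 9 and 8 without control 2 or control 3, and genes up to 2427 and 2523, against 3414. Atf6, Hspa5 and Pdia3 were the T58A calls, and Atf6, Canx, Dnajc3, Ern1, Hspa5, Hyou1, Pdia3, Ssr1 and Ssr3 the S62A calls, that stood in every alternative run. The 2 lists passed unlike sets of runs, since T58A alone had a fit against a lone control of the same title code. Apart from that fit, the T58A calls of Canx, Dnajc3, Ern1, Fkbp11, Ssr1 and Ssr3 stood as well.

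The title codes of the libraries run with the groups. Every S62A library, splenomegaly masses included, has code I and no control has, and there the code cannot be told apart from the group. T58A lymphomas share code H with control 3, and against that lone control 3 members rose (Atf6, Hspa5 and Pdia3) and 0 fell, the lone control being assumed to vary like the other libraries. In that fit 3.77% of all genes rose and 4.23% fell, against 18.8% and 17.4% with all 3 controls.

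In T58A lymphomas and splenomegaly masses the same libraries were often highest or lowest. T58A lymphoma 2 was the highest of its group in 30 of the 37 members and T58A lymphoma 3 the lowest in 26. Splenomegaly mass 3 was the highest of its group in 35 members and splenomegaly mass 1 the lowest in 30. The same libraries were highest and lowest in the sum of plasma cell markers, 2950 and 429 CPM in T58A lymphomas and 29200 and 18400 in splenomegaly masses. B cell markers were also highest in T58A lymphoma 2 and lowest in T58A lymphoma 3 (499 and 42.1 CPM). They were lowest in splenomegaly mass 1 but highest in splenomegaly mass 2 (2310 and 3050 CPM). Macrophage and dendritic cell markers were lowest in T58A lymphoma 3 too (1820 and 22.7 CPM). T cell markers were highest in T58A lymphoma 2 but lowest in T58A lymphoma 1 (4720 and 3640 CPM). In splenomegaly masses some other sums ran the other way. Those of macrophages, fibroblasts and dendritic cells were highest in splenomegaly mass 1 (7920, 1210 and 360 CPM) and lowest in splenomegaly mass 3 (4340, 695 and 157 CPM). Fibroblast and thymic epithelium markers were highest in T58A lymphoma 3 (1760 and 124 CPM). What part any of these cells had in the order of libraries was not tested. S62A lymphomas held no such order: libraries 1, 2 and 3 were the lowest in 17, 9 and 11 members and the highest in 9, 12 and 16. Their members summed to 8963, 10503 and 9342 CPM and their plasma cell markers to 1210, 699 and 2390. Library 2 was thus highest in the former and lowest in the latter. The chaperone members alone summed to 4472, 4828 and 4881 CPM, highest in library 3, as were the plasma cell markers.

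**Figure D5:**
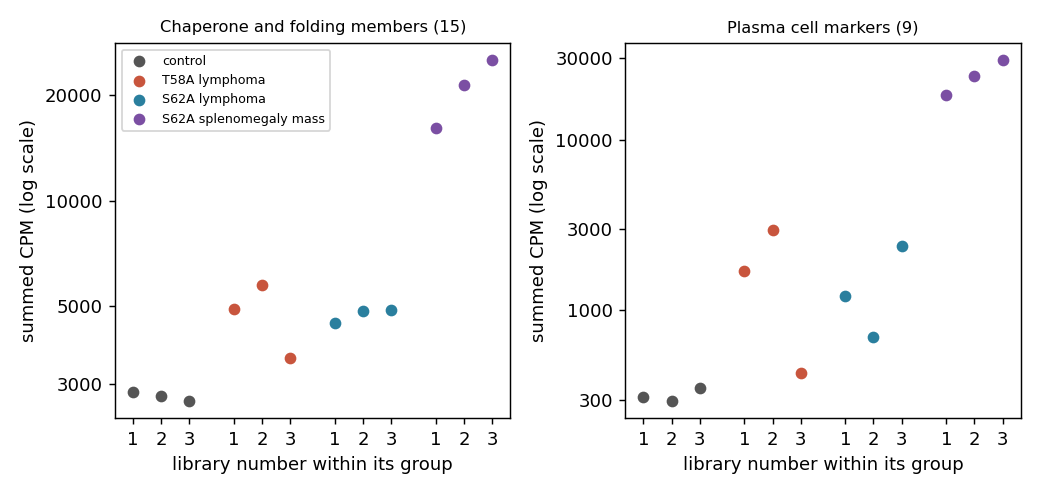
Summed CPM (log scale) of the 15 chaperone and folding members (left) and of 9 plasma cell markers (right) in each of the 12 libraries, by library number within its group. Within T58A lymphomas library 2 is highest and library 3 lowest in both panels, and the splenomegaly libraries lie above all others in both, at 16078 to 25163 and 18400 to 29200 CPM.

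Members with and without an exact match to the ER stress response element in their promoter window were described side by side. A window with only a near match counted as without it. The 9 members with it had a median log2 fold change of 2.52 in splenomegaly masses against control (0.97 to 7.52), and the 21 members with a window that lacked it had 2.37 (-0.46 to 6.22). Against S62A lymphomas the medians were 2.41 (0.12 to 5.99) and 1.36 (-0.27 to 5.98). In T58A lymphomas they were 0.73 and 0.63, and in S62A lymphomas 0.58 and 0.36. The ranges of both kinds overlapped throughout, and Canx, with the element, had the smallest difference of the 9 between splenomegaly masses and S62A lymphomas.

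Other genes of the same pathways were higher mainly in splenomegaly masses. Of 23 further stress response genes 5 rose and 6 fell in T58A lymphomas, 6 rose and 4 fell in S62A lymphomas, and 11 rose and 2 fell in splenomegaly masses. The shares up and down were 21.7% and 26.1% in T58A and 26.1% and 17.4% in S62A lymphomas, near those of all genes (18.8% and 17.4%, 21.9% and 22.2%), and 47.8% and 8.7% in splenomegaly masses (22.9% and 26.3% of all genes). Xbp1, the factor spliced by IRE1, held 157, 158 and 207 CPM in controls, 227, 315 and 86.1 in the T58A lymphomas, 92, 116 and 128 in the S62A lymphomas and 2230, 2600 and 3840 in the splenomegaly masses, a rise of 4.06 ± 0.42 (adjusted p = 2.7e-05). Xbp1 is also among the 9 plasma cell markers. Creb3l2, an ATF6-like factor of secretory cells, rose by 3.17 ± 0.34 in splenomegaly masses (adjusted p = 3e-05) and fell by 1.71 ± 0.33 in S62A lymphomas (adjusted p = 0.00209). Mbtps1, the protease that cleaves ATF6, fell in all 3 groups, by 0.94 ± 0.17, 1.02 ± 0.17 and 1.18 ± 0.17 (adjusted p = 0.00142, 0.000696 and 0.000206), while Atf6 itself rose in all 3. Eif2s1, the subunit of the initiation factor that PERK phosphorylates, rose by 0.91 ± 0.13 in T58A lymphomas (adjusted p = 0.000486) and 1.19 ± 0.13 in S62A lymphomas (adjusted p = 6.86e-05).

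Among the same 23 genes Vldlr, a lipoprotein receptor gene, rose by 3.29 ± 0.44 in T58A lymphomas (adjusted p = 0.000288) and 3.83 ± 0.45 in S62A lymphomas (adjusted p = 9.25e-05), and was lower by -4.71 ± 0.48 in splenomegaly masses than in S62A lymphomas (adjusted p = 2.29e-05). Traf2, an adaptor that IRE1 recruits, fell by 0.86 ± 0.15 in T58A lymphomas (adjusted p = 0.00112). Ddit4, a stress-induced inhibitor of mTOR signalling, fell by 1.54 ± 0.37 in splenomegaly masses (adjusted p = 0.00576). Cebpg, a partner of ATF4, was the only gene of this list that differed between the lymphoma groups, higher in S62A by 0.63 ± 0.13 (adjusted p = 0.032).

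Of 23 further folding and redox enzymes 6 rose and 0 fell in T58A lymphomas, 5 rose and 1 fell in S62A lymphomas, and 18 rose and 0 fell in splenomegaly masses. The shares up, 26.1%, 21.7% and 78.3%, compare with 18.8%, 21.9% and 22.9% of all genes, so the S62A share was that of all genes. Txndc11, a thioredoxin-like protein, rose by 3.14 ± 0.18 (adjusted p = 8.4e-07) and Erp44, which retains folding clients, by 2.25 ± 0.14 (adjusted p = 1.67e-06) in splenomegaly masses. Hspa13, an Hsp70 relative, rose by 0.86 ± 0.17 in T58A lymphomas (adjusted p = 0.00311) and 1.23 ± 0.17 in S62A lymphomas (adjusted p = 0.000296). Sil1, an exchange factor of BiP, rose by 0.87 ± 0.17 in T58A lymphomas (adjusted p = 0.00293) and was lower by -0.77 ± 0.17 in S62A than in T58A lymphomas (adjusted p = 0.0407), the same direction as Fkbp11.

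Of 20 further degradation genes 5 rose and 1 fell in T58A lymphomas, 7 rose and 2 fell in S62A lymphomas, and 12 rose and 2 fell in splenomegaly masses. The shares up were 25%, 35% and 60%, beside the same 18.8%, 21.9% and 22.9% of all genes. Vimp, a selenoprotein of the retrotranslocation complex, rose by 1.08 ± 0.17 (adjusted p = 0.000764), 0.8 ± 0.17 (adjusted p = 0.00342) and 2.59 ± 0.18 (adjusted p = 2.4e-06). Ngly1, which strips glycans from retrieved proteins, fell by 0.61 ± 0.12 in T58A lymphomas (adjusted p = 0.00296) and 0.76 ± 0.12 in S62A lymphomas (adjusted p = 0.000639). Ube2j2, a ubiquitin-conjugating enzyme, fell by 0.74 ± 0.14 in splenomegaly masses (adjusted p = 0.00133) while its relative Ube2j1 rose by 2.23 ± 0.16 (adjusted p = 2.73e-06).

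Of 41 further genes of translocation, glycosylation and transport 14 rose and 1 fell in T58A lymphomas, 14 rose and 0 fell in S62A lymphomas, and 31 rose and 1 fell in splenomegaly masses. The shares up were 34.1%, 34.1% and 75.6%, beside 18.8%, 21.9% and 22.9% of all genes. The shares down were 2.44%, 0% and 2.44%, beside 17.4%, 22.2% and 26.3% of all genes. Stt3a, a catalytic subunit of the enzyme that adds N-glycans, rose by 0.75 ± 0.11 (adjusted p = 0.00059), 0.8 ± 0.11 (adjusted p = 0.00031) and 2.21 ± 0.12 (adjusted p = 6.86e-07). Sec24b, a relative of Sec24d in the coat, was the gene that fell in splenomegaly masses, by 0.79 ± 0.11 (adjusted p = 0.000193), and Preb, which activates the coat's GTPase, the one that fell in T58A lymphomas, by 0.35 ± 0.12 (adjusted p = 0.0488).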

How the data were processed

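The authors deposited, per library, read counts as whole numbers for RefSeq transcripts, and FPKM values, which scale reads to transcript length and library size. Bowtie 1.0.0, bcl2fastq and DESeq2 were used with build mm9, per the submitters' processing notes; per the labels' protocols the library kit keeps strand. How reads were counted (tool, strand, reads with several places) was not given in the sources used here. Gene positions are those of the deposited tables on mm9, with starts taken as counted from 0 and printed counted from 1.

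The tables list 36141 transcripts of 24478 symbols, and a gene was the transcript with the most reads over the 12 libraries. Among the 9 members with several transcripts, the second held 0.025 of the first's reads in Eif2ak3, 0.618 in Dnajb11 and at least 0.982 in the others. Counts were tested in R 4.3.3 with edgeR 4.0.16 (filterByExpr with a minimum count of 10, TMM factors, glmQLFit and glmQLFTest) in 1 fit of all 12 libraries with group as the only term. P-values were adjusted by Benjamini and Hochberg over 15606 genes with a threshold of 0.05. SE is the log2 fold change over the square root of the F value, and SD is over n = 3. The fit was tested on simulated data.

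Groups follow the labels, and replicate numbers follow deposit order. Alternatives were scaling by library size, no filter on low counts, DESeq2 1.42.0, limma 3.58.1 on log2(FPKM + 1), fits of the compared groups alone, the second transcript, libraries left out in turn, and title code H alone. Fits with T58A lymphoma 3 or S62A lymphoma 1 as the lone sample of its group were added after the values were seen. The 5 sensors and factors and Hspa5 were named in every library, with the 2 risen and 2 fallen members of largest change per branch and comparison. Hsp90b1 and Xbp1 were given per library beyond that rule, after their values were seen. Of the further pathway lists the genes named are among the 2 risen and 2 fallen with the smallest adjusted p. Members, lists and tests were chosen with earlier results of these data known. Splenomegaly masses were not compared with T58A lymphomas, since mutant and disease both differ. Promoter windows are those of RefSeq on GRCm38.p6, matched by symbol, and 7 members had none there. Protein sequences were not used here. Figures were drawn with matplotlib 3.10.9 in Python 3.11.15.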

Additional observations from a re-analysis of the deposited data

Results flagged for a closer look

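Dnajc3 and Syvn1 drew notice because their direction differed between the S62A groups under the same contrast with control. Both were lower than control in S62A lymphomas and higher in splenomegaly masses, and the difference between these groups, tested directly by edgeR's quasi-likelihood test, was 2.02 ± 0.24 on the log2 scale for Dnajc3 (adjusted p = 5.32e-05) and 2.57 ± 0.19 for Syvn1 (adjusted p = 4.41e-06). Fkbp11 differed between the lymphoma groups, by -2.69 ± 0.59 (S62A minus T58A, adjusted p = 0.0365), with 6 to 38 reads per S62A library. Groups of 3 libraries were not tested for outliers.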

How the results depend on the processing

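No paired analysis was possible because the titles carry no replicate numbers that the groups share. No call changed direction in any alternative. All 32 rises from S62A lymphomas to splenomegaly masses, and 34 of the 36 against control, stood in every alternative, Atf4 and Eif2ak3 being the exceptions; fitting splenomegaly masses and controls alone added 1 fall (Ddit3). Members up and down in T58A lymphomas, 24 and 2, came to 24 and 1 with the second transcript (18.8% and 17.3% of all genes). With a library left out they ran from 12 to 23 and 1 to 3. The median log2 fold change of the members was 0.63 with title code H alone and 0.37 with T58A lymphoma 3 alone. The medians of all genes in these 2 fits were 0.01 and -0.02. Members up and down in S62A lymphomas, 15 and 2, came to 13 and 5 by library size (18.3% and 25.1% of all genes). They came to 17 and 4 by DESeq2 (23.1% and 25.3%) and 10 and 4 by limma on FPKM (16.7% and 26.6%). The fit of those groups alone gave 20 and 4 (22.9% and 23.5%). With a library left out the members up and down ran from 8 to 17 and 2 to 3. With S62A lymphoma 1 alone the median log2 fold change of the members was 0.37, and that of all genes -0.09. Between the lymphoma groups the 1 lower member became 2 by DESeq2 and 0 in their own fit, and 0 to 3 with a library left out. Over all genes, the 358 lower became 1137 by DESeq2 and 106 to 572 with a library left out. In their own fit 0 of 14138 genes were called in either direction. Scaling by library size moved the median of all genes in splenomegaly masses from -0.08 to -0.19 and the split of all genes between the lymphoma groups from 134 up and 358 down to 86 and 456. A lone library was assumed to vary like the other groups. With a library left out, genes up over all genes ran from 1973 to 2587 in T58A lymphomas, against 2938 with every library. In S62A lymphomas they ran from 2427 to 3184, against 3414. The cause of these changes was not tested. Fkbp11 and Derl3, at the lowest CPM of their branches in controls, are the members whose values depth limits most.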
